A study of Mus musculus with 2 samples.

Results

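The 9 genes described here carry the ectodysplasin signal and the placode programme around it: Eda, Edar, Eda2r, Edaradd, Traf6, Sp6, Lef1, Sostdc1 and Lrp4. They were chosen by name. Each gene identifier in the deposited gene tables, without its version, was given its GENCODE M21 symbol, and the 9 symbols were kept out of 43346 gene rows, of which 21474 are protein-coding. Each symbol matched 1 row, and the rule uses no measured value.

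Total RNA of mouse facial prominences, the swellings from which the face and jaws form, was sequenced at embryonic day 13.5 in 2 libraries. Both belong to 1 group of healthy embryos of strain B6NCrl, with males and females pooled. The labels number the libraries as biological replicates 1 and 2, give each its own biosample and both the same donor identifier, and name no allele, agent or control group. The number of embryos behind each library is not stated in the labels. Every comparison below is therefore between genes, between transcripts or between the 2 libraries, and no test between conditions could be made.

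Ectodysplasin A is a membrane-anchored ligand of the tumour necrosis factor family that is shed and acts on nearby epithelium. Its receptor Edar binds the adaptor Edaradd, and Traf6 with the Tab proteins passes the signal on to the IkB kinases and NF-kB. The pathway acts in placodes, the local thickenings of epithelium from which teeth, hairs and glands arise, and loss of Eda, Edar or Edaradd causes hypohidrotic ectodermal dysplasia, with missing teeth and sparse hair. Lef1 and Sp6 are transcription factors needed for tooth development. Sostdc1 is a secreted antagonist of Wnt and Bmp signals that binds Lrp4, and mice without Sostdc1 form extra teeth. At this stage the molar teeth are at the bud stage and whisker follicles are forming in the same tissue.

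Replicate 1 held 28542452 expected counts over gene rows and replicate 2 held 22719352, so 0 counts allow up to 0.105 and 0.132 counts per 1000000 counts (3 counts, counting error only). Markers of the labelled tissue were present: 8 of 8 genes of surface and oral epithelium and 8 of 8 of neural crest mesenchyme reached 1 TPM (transcripts per 1000000) in each library. Their summed levels were 1418 TPM in replicate 1 and 1365 TPM in replicate 2 for epithelium, and 3047 and 2843 TPM for mesenchyme. Markers of muscle, cartilage and bone, endothelium, leukocytes and neurons lay at 107 to 1665 TPM in sum. The 8 liver markers summed to 15.6 TPM in replicate 1, where 2 reached 1 TPM, and to 361 TPM in replicate 2, where 8 did. The 6 heart markers summed to 6.86 TPM in replicate 1 and 34.3 TPM in replicate 2. What part this liver and heart signal had in the values below was not tested, so each member is given in each library. In a piece of whole tissue, fewer cells of a type and less RNA per cell cannot be told apart.

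Of the 9 genes, 8 reached 1 TPM in both libraries, against a background of 60.9% of protein-coding genes, and the exception was Eda2r. The levels spanned a wide range. Sostdc1 and Lef1 together made up 91.1% of the summed TPM of the 9 genes in replicate 1 and 90.2% in replicate 2. The median of the 9 mean levels was 3.47 TPM, beside 4.68 TPM over all protein-coding genes. The same 60.9% and 4.68 TPM are the background for each list of genes below.

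**Figure D1:**
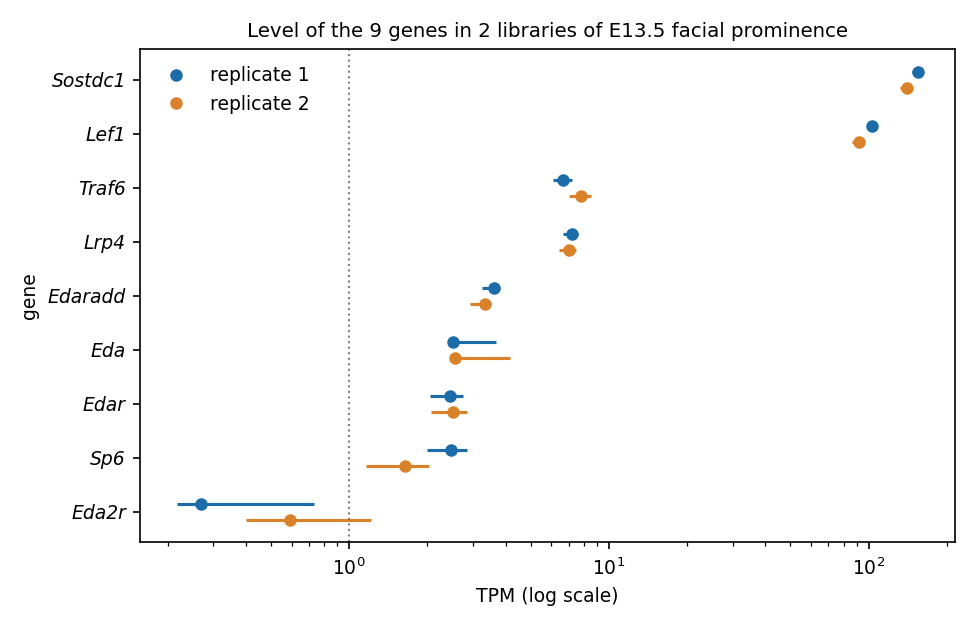
Level of each gene in TPM (log scale) in replicate 1 and replicate 2, with the deposited credibility interval as a horizontal line and the threshold of 1 TPM as a dotted line. Sostdc1 and Lef1 lie near 100 TPM or above, 6 genes lie between 1.64 and 7.79 TPM, and Eda2r lies below 1 TPM in both libraries.

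Eda (chromosome X, 99975606 to 100400762, plus strand, GRCm38), the ligand, had 2.5 TPM in replicate 1 and 2.56 TPM in replicate 2, from 249 and 199 expected counts. Its mean was 2.53 ± 0.0424 TPM (SD, n = 2). The deposited posterior mean TPM was higher, at 3.06 in replicate 1 and 3.32 in replicate 2, and in replicate 2 the TPM lay below its own credibility interval of 2.58 to 4.15. Eda has 12 annotated transcripts, 9 of them coding.

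Alternative splicing gives Eda a receptor choice. The A1 form binds Edar, and the A2 form, which lacks 2 codons, binds Eda2r. The 6 bases lie at the end of exon 7 of the 8 exons of Eda-206: the A1 transcripts use the splice donor at X:100395149 and the A2 transcripts the donor at X:100395143, after 918 coding bases and in frame. The junctions are shown because these 6 bases set the receptor. Both lines start at chrX:100395120, read along the plus strand of GRCm38, and run into the last exon at X:100396905. Capitals mark the 6 bases that only the A1 donor keeps.

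Eda-206: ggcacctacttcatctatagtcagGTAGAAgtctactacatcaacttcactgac

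Eda-205: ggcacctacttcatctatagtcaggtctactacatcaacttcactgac

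Eda-206 codes for 391 codons and is the full A1 form. Eda-205 codes for 386, because besides the shorter donor it uses an acceptor 9 bases further on at the start of an exon (100395028 in place of 100395019). None (0) of the annotated transcripts combines the A2 donor with every other exon of Eda-206, so the A2 class below is defined by its donor alone.

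Transcripts with the A1 donor held 68.5% of the coding Eda TPM in replicate 1 and 48.4% in replicate 2. Transcripts with the A2 donor held 21.4% in replicate 1 and 51.6% in replicate 2. Eda-207, which was placed in neither class, held the remaining 10.1% in replicate 1 and was at 0 in replicate 2. The A1 class was thus the larger in replicate 1 and close to level with the A2 class in replicate 2, with means of 58.5% ± 14.2 for A1 and 36.5% ± 21.3 for A2 (SD, n = 2). The single transcripts carried little certainty: Eda-206 had 1.63 TPM in replicate 1 and 1.22 TPM in replicate 2, both above upper credibility bounds of 1.39 and 1.05, while the lower bounds lay near 0. With posterior mean TPM the order of the class means turned round, with 35.5% ± 9.45 for A1 and 50.4% ± 11.1 for A2 (SD, n = 2). On that estimate the classes were level in replicate 1, at 42.1% for A1 and 42.5% for A2. They parted in replicate 2, at 28.8% for A1 and 58.3% for A2. The A1 class sums 3 annotated transcripts and the A2 class 5. Both classes were assigned reads in both libraries, and which was the more abundant depends on the estimate used.

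**Figure D2:**
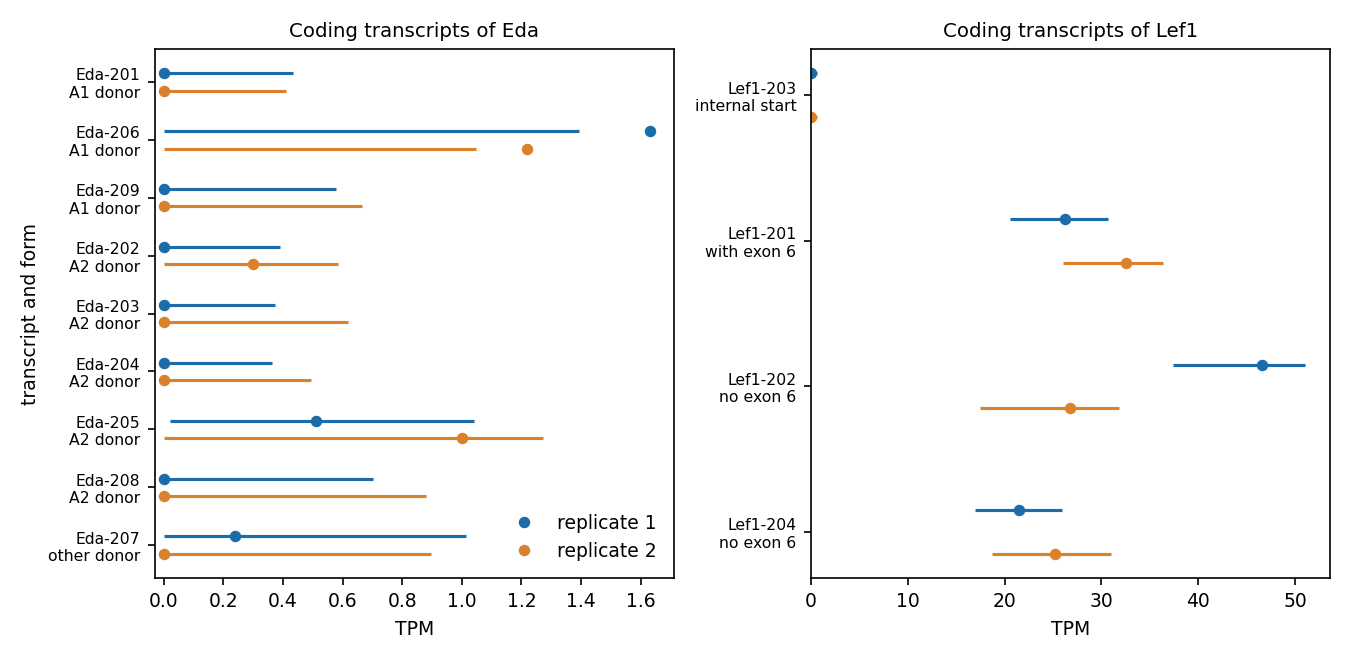
TPM of each coding transcript of Eda (left) and Lef1 (right) in replicate 1 and replicate 2, grouped by form, with deposited credibility intervals as lines. Nearly every Eda interval reaches down to about 0 and Eda-206 lies above its own interval in both libraries, whereas Lef1-201, Lef1-202 and Lef1-204 have intervals well away from 0.

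Edar (chromosome 10, 58600789 to 58675654, minus strand), the receptor of the A1 form, had 2.45 TPM in replicate 1 and 2.52 TPM in replicate 2, from 183 and 144 counts in its 1 transcript. On TPM its level lay close to that of its ligand: the log2 ratio of Eda over Edar was 0.03 in replicate 1 and 0.02 in replicate 2, and their credibility intervals overlapped. By posterior mean TPM Eda was the higher, with 3.06 in replicate 1 and 3.32 in replicate 2, against 2.39 and 2.45 for Edar. Eda2r (chromosome X, 97333840 to 97377216, minus strand), the receptor of the A2 form, had 0.27 TPM in replicate 1 and 0.59 TPM in replicate 2, from 19 and 27 counts. Edar was higher than Eda2r in both libraries, by 9.07-fold in replicate 1 and 4.27-fold in replicate 2 on TPM, and their intervals did not overlap in either. The posterior mean TPM put them nearer, with 2.39 in replicate 1 and 2.45 in replicate 2 for Edar, against 0.45 and 0.78 for Eda2r. Eda2r and Eda lie on the same chromosome with 2598390 bases between them. Of the 4 annotated Eda2r transcripts, the coding Eda2r-201 held 53.8% of the TPM in replicate 1 and 47.5% in replicate 2, and retained-intron transcripts held the rest. Its share was 31.8% in replicate 1 and 33.3% in replicate 2 by posterior mean TPM, and 74.4% and 77.2% by expected counts.

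Both receptors lay below the median of their relatives. Of 8 related receptors of the tumour necrosis factor family, 7 reached 1 TPM in both libraries, with a median of 14.1 TPM. The highest were Tnfrsf19 (Troy), which is close to Edar in sequence, at 55.4 TPM in replicate 1 and 51.8 TPM in replicate 2, and Tnfrsf1a at 51.1 and 47.9 TPM. Tnfrsf21 followed by mean, at 17.5 TPM in replicate 1, where Ngfr was higher at 19.1 TPM, and 26.3 TPM in replicate 2. Tnfrsf11a (RANK), named after its values were seen, was the 1 below the threshold, at 0.68 and 0.74 TPM. Tnfrsf19 exceeded Edar by 4.43 ± 0.10 on the log2 scale (SD over libraries, n = 2).

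Edaradd (chromosome 13, 12472632 to 12520438, minus strand), the death-domain adaptor of Edar, had 3.62 TPM in replicate 1 and 3.32 TPM in replicate 2, from 613 and 429 counts. It lay above its receptor in both libraries, with a log2 ratio over Edar of 0.48 ± 0.12 (SD, n = 2) and no overlap of credibility intervals. The deposited length of its 1 transcript, 8103 nt, is longer than the 6668 nt of GENCODE M21, and with the shorter length the mean level was 4.23 TPM. Traf6 (chromosome 2, 101678429 to 101701669, plus strand), an E3 ubiquitin ligase shared with interleukin and Toll-like receptors, had 6.63 TPM in replicate 1 and 7.79 TPM in replicate 2, from 797 and 707 counts. Its log2 ratio over Edar was 1.53 ± 0.14 (SD, n = 2), so that among Eda, Edar, Edaradd and Traf6 the shared adaptor was highest in both libraries. The coding Traf6-201 held 90.7% of its TPM in replicate 1 and 90.8% in replicate 2.

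RNA of the other adaptors and of the NF-kB relay was detected throughout the list. All 19 listed adaptors and NF-kB components reached 1 TPM in both libraries, with a median of 21.9 TPM and means of 2.26 to 73.6 TPM. The highest by mean were Traf4, a relative of Traf6, at 76.9 TPM in replicate 1 and 70.2 TPM in replicate 2, Nfkbia, an inhibitor of NF-kB, at 63.5 and 71.6 TPM, and the kinase Ikbkb at 36.6 and 42.5 TPM. In replicate 1 Rela (37.45 TPM) and Chuk (37.43 TPM) stood ahead of Ikbkb. These components also serve many other receptors, and RNA of whole tissue does not show whether they lie in the cells with Edar.

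Of 13 genes reported as targets of Eda signalling, 8 reached 1 TPM in both libraries, with a median of 1.49 TPM. That share was close to the 60.9% of all protein-coding genes, and the median was below their 4.68 TPM. Ccn2, a matricellular protein, was highest at 18.9 TPM in replicate 1 and 30.7 TPM in replicate 2. Fst, which binds activin, had 18.4 and 17.7 TPM, and the protease Mmp9 had 12.6 and 18.5 TPM. The 5 below the threshold, named after their values were seen, were Shh (0.84 TPM in replicate 1 and 0.82 TPM in replicate 2), Fgf20 (0.37 and 0.76 TPM), Dkk4 (0.90 and 0.72 TPM), Cxcl10 (0.33 and 0.56 TPM) and Cxcl11 (0 and 0.04 TPM). Shh, Fgf20 and Dkk4 are signals confined to small placode or signalling-centre domains, and all 3 carried reads in both libraries.

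Of 17 signals and factors of the placode and dental epithelium, 14 reached 1 TPM in both libraries, with a median of 4.63 TPM. Among the highest were Cdkn1a, a cell cycle inhibitor that marks the enamel knot but is widely expressed, at 68.2 TPM in replicate 1 and 57.2 TPM in replicate 2, and Trp63, a factor of basal epithelium, at 45.0 and 44.2 TPM. Shh, Fgf20 and Fgf4 (0.08 TPM in replicate 1 and 0.04 TPM in replicate 2) were below the threshold. Genes listed for dental mesenchyme were higher: 14 of 15 reached the threshold with a median of 24.3 TPM, led by Msx1 at 440 TPM in replicate 1 and 399 TPM in replicate 2, Sfrp2, a Wnt antagonist, at 245 and 307 TPM, and Bmp4 at 51.8 and 47.4 TPM, with Fgf3, at 0.41 and 0.87 TPM, the 1 below. Msx1 is also among the neural crest mesenchyme markers used above. In whole tissue the part of dental mesenchyme in these levels cannot be told from that of other mesenchyme. Enamel and dentin matrix genes, products of later tooth stages, were low, with 2 of 10 at the threshold in both libraries and a median of 0.125 TPM. The 2 were Tuft1, at 6.23 TPM in replicate 1 and 6.43 TPM in replicate 2, and Ambn, at 5.70 and 3.26 TPM. Odam had 1.65 TPM in replicate 1 and 0.39 TPM in replicate 2. Dmp1 had 0.75 TPM in replicate 1 and 1.12 TPM in replicate 2, so each reached the threshold in 1 library. Amelx, the main enamel protein, had 0 counts in both.

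**Figure D3:**
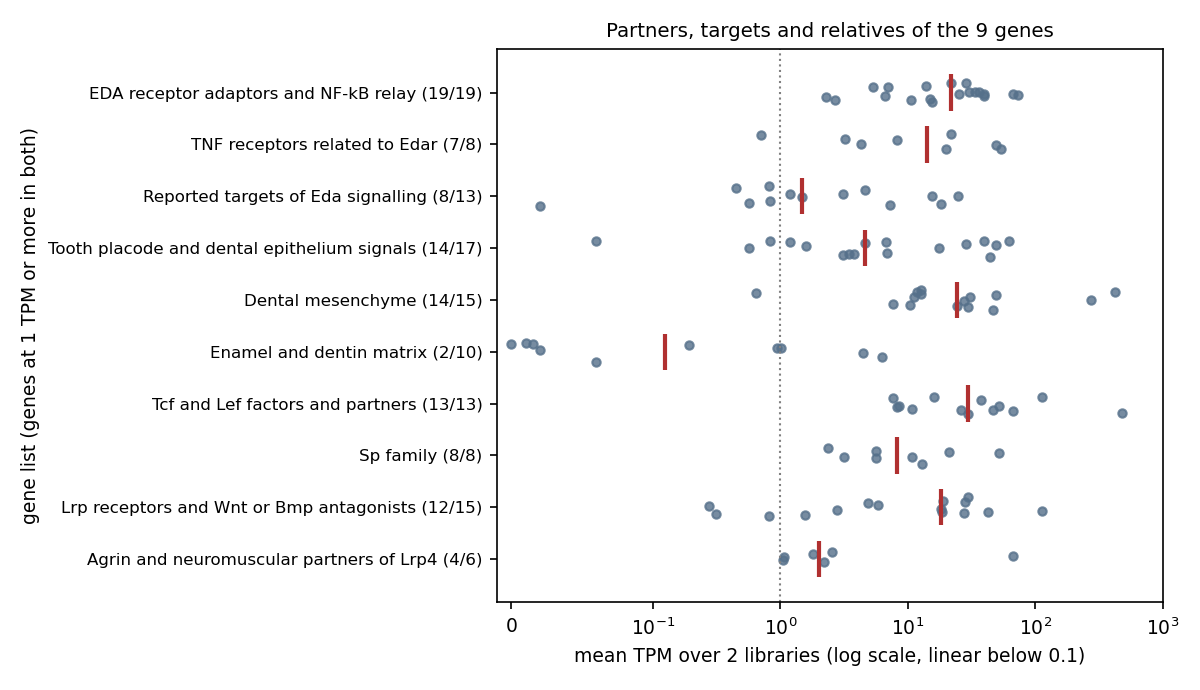
Mean TPM over the 2 libraries of every gene in the 10 lists of partners, targets and relatives (points; log scale, linear below 0.1), with the list median as a red bar and the number of detected genes beside each name. The NF-kB relay, dental mesenchyme and Tcf and Lef partners have medians above 20 TPM, and the enamel and dentin genes lie lowest, with a median of 0.125 TPM.

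Lef1 (chromosome 3, 131110471 to 131224356, plus strand), the transcription factor through which beta-catenin acts in tooth and hair buds, had 103 TPM in replicate 1 and 92.1 TPM in replicate 2, from 7002 and 4784 counts. Its mean of 97.7 ± 7.99 TPM (SD, n = 2) placed it at rank 1508 of the protein-coding genes. Among the 4 Tcf and Lef factors it exceeded Tcf7l1, with 44.5 TPM in replicate 1 and 48.9 TPM in replicate 2, and Tcf7, with 6.47 and 8.76 TPM. Tcf7l2 was higher in each library, at 105 and 121 TPM, but the log2 ratio of Lef1 over Tcf7l2 was -0.21 ± 0.26 (SD, n = 2), no larger than its spread, and their credibility intervals overlapped in replicate 1 and not in replicate 2. All 13 listed factors and partners reached the threshold, with a median of 29.7 TPM, led by Ctnnb1 (beta-catenin) at 470 TPM in replicate 1 and 483 TPM in replicate 2, Tcf7l2, and Bcl9 at 64.2 and 69.6 TPM.

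Lef1 RNA was spread over forms with and without an alternative exon of 84 bases, exon 6 of the 12 exons of Lef1-201. The exon lies at chr3:131191023-131191106 on the plus strand of GRCm38 and its length is a multiple of 3 bases, so the reading frame continues on either side. It is shown with 12 bases of each neighbouring exon, the exon in capitals, above the junction that skips it.

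Lef1-201: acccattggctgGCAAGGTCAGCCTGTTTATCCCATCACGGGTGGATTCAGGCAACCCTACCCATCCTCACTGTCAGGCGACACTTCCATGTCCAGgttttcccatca

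Lef1-202: acccattggctggttttcccatca

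The form with the exon held 27.8% of the coding Lef1 TPM in replicate 1 and 38.5% in replicate 2, a mean of 33.1% ± 7.56 (SD, n = 2). The forms without it, Lef1-202 and Lef1-204, held 72.2% in replicate 1 and 61.5% in replicate 2, so skipping was the more common in both. Lef1-202 led in replicate 1 with 46.6 TPM, and had 26.8 TPM in replicate 2. Lef1-201, with 26.2 TPM in replicate 1 and 32.5 TPM in replicate 2, led in replicate 2. Lef1-203 starts 2326 bases downstream of the first start, inside the gene, and lacks most of the first coding exon (9 coding bases in place of 207), the stretch that codes the N-terminal part of the protein, where beta-catenin binds. It had 0 counts in both libraries, with upper credibility bounds of 0.684 TPM (replicate 1) and 0.638 TPM (replicate 2). A retained-intron transcript, Lef1-206, had 8.57 TPM in replicate 1 and 6.76 TPM in replicate 2. Exons of Lef1 share 1208 bases with the opposite-strand gene Gm43352, which has no row in the deposited tables.

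Sp6 (chromosome 11, 97013394 to 97024734, plus strand), also called epiprofin, a zinc-finger factor of dental and skin epithelium, had 2.46 TPM in replicate 1 and 1.64 TPM in replicate 2, from 183 and 92.4 counts. Its mean of 2.05 ± 0.580 TPM (SD, n = 2) was below that of each other Sp gene, although in replicate 1 Sp8 was lower. The other 8 Sp genes all reached the threshold with a median of 8.19 TPM. Sp3 was highest at 52.0 TPM in replicate 1 and 51.8 TPM in replicate 2, followed by Sp7 (osterix), the bone factor, at 24.1 and 18.2 TPM, and Sp2 at 13.7 and 12.3 TPM. Sp1 had 9.84 TPM in replicate 1 and 11.6 TPM in replicate 2, Sp5 had 5.76 and 5.55 TPM, and Sp4 had 5.34 and 5.91 TPM.

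Sp8 and Sp9, both factors of limb and facial ectoderm, lay near Sp6. Sp8 had 2.41 TPM in replicate 1 and 3.96 TPM in replicate 2, and Sp9 had 2.75 and 1.95 TPM. Sp6 had 1.02-fold the level of Sp8 in replicate 1 and 0.414-fold in replicate 2, so their order was not settled. Sp6 shares 86.7% of its exon bases (3329 bases) with Gm11532 on the opposite strand, which was given 30.8 counts in replicate 1 and 31.6 in replicate 2. The labels do not say whether the libraries keep strand, so the split between these genes is uncertain, and together they averaged 2.38 TPM. Its transcripts Sp6-202 and Sp6-201 code for proteins of the same length, 376 codons. Sp6-202 held 100% of the TPM in replicate 1 and 59.8% in replicate 2.

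**Figure D4:**
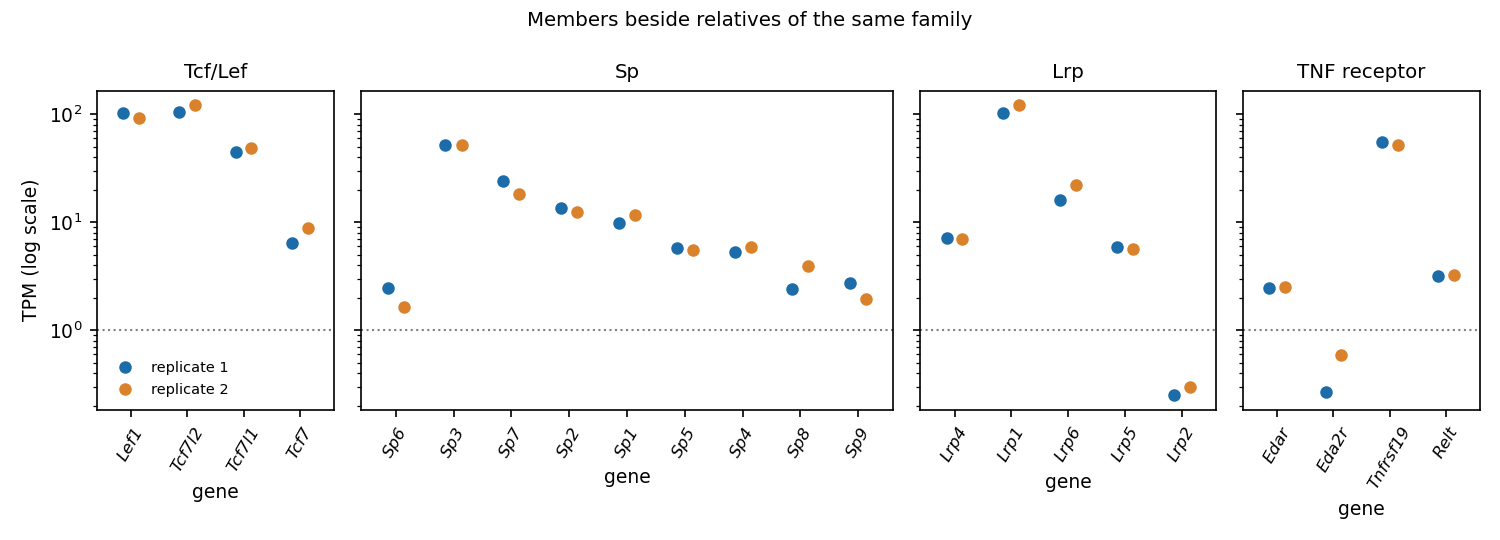
TPM (log scale) in replicate 1 and replicate 2 of Lef1 beside the Tcf factors, Sp6 beside the other Sp factors, Lrp4 beside Lrp receptors, and Edar and Eda2r beside 2 related receptors, with 1 TPM dotted. Lef1 lies near the top of its family at 103 and 92.1 TPM, whereas Sp6 (2.46 and 1.64 TPM) and Eda2r (0.27 and 0.59 TPM) lie near the bottom of theirs.

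Sostdc1 (chromosome 12, 36314139 to 36318452, plus strand), also called ectodin or Wise, was the highest of the 9 genes, with 154 TPM in replicate 1 and 141 TPM in replicate 2, from 5397 and 3754 counts in 1 transcript. Its mean of 148 ± 9.59 TPM (SD, n = 2) gave it rank 928 among protein-coding genes. In both libraries its TPM lay above the upper credibility bound, as that of Lef1 did, by less than 1 TPM. Lrp4 (chromosome 2, 91457511 to 91513779, plus strand), the low-density lipoprotein receptor relative that Sostdc1 binds, had 7.19 TPM in replicate 1 and 7.01 TPM in replicate 2, from 1093 and 814 counts. The secreted antagonist thus exceeded its receptor partner by 4.38 ± 0.07 on the log2 scale (SD, n = 2). The coding Lrp4-201 held 84.7% of the Lrp4 level in replicate 1 and 84.9% in replicate 2.

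Of 15 Lrp receptors and Wnt or Bmp antagonists, 12 reached the threshold, with a median of 18.1 TPM, and Sostdc1 was above each of the 15 in both libraries. The highest by mean were Lrp1 at 104 TPM in replicate 1 and 122 TPM in replicate 2, Dkk3 at 33.0 and 52.2 TPM, and Dkk1 at 30.2 and 29.0 TPM, although Kremen2 and Dkk2 were above Dkk1 in replicate 1. The Wnt co-receptor Lrp6 exceeded Lrp4, with 16.0 TPM in replicate 1 and 22.0 TPM in replicate 2, whereas Lrp5 was below it, with 5.94 and 5.64 TPM. Dkk4 and 2 others named after their values were seen were below the threshold. Lrp2 had 0.25 TPM in replicate 1 and 0.30 TPM in replicate 2, and Sost, the closest relative of Sostdc1, had 0.31 and 0.32 TPM.

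Lrp4 is also the muscle receptor of agrin at nerve endings. Of 6 agrin and neuromuscular partners 4 reached the threshold in both libraries and 6 in replicate 1, with a median of 2.01 TPM. Over all protein-coding genes 60.9% did so in both, with a median of 4.68 TPM. Agrn had 62.9 TPM in replicate 1 and 70.8 TPM in replicate 2, Rapsn had 2.54 and 2.53 TPM, and Chrng had 2.24 and 2.17 TPM. The 2 that did so in replicate 1 but not in replicate 2, named after their values were seen, were Musk, the kinase that pairs with Lrp4 in muscle, at 1.12 TPM in replicate 1 and 0.96 TPM in replicate 2, and its activator Dok7, at 1.26 and 0.88 TPM. Lrp4 exceeded Musk by 2.78 ± 0.13 on the log2 scale (SD, n = 2). Skeletal muscle markers summed to 198 TPM in replicate 1 and 235 TPM in replicate 2, and their part in the Lrp4 level was not tested.

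Ordered by mean TPM, the 9 genes ran Sostdc1, Lef1, Traf6, Lrp4, Edaradd, Eda, Edar, Sp6 and Eda2r. Of the 8 neighbouring pairs, 5 were apart in that the values of the higher gene lay wholly above those of the lower. The value ranges overlapped for Traf6 and Lrp4, Eda and Edar, and Edar and Sp6. On TPM Eda was above Edar in each library, but by a log2 ratio of only 0.03 and 0.02. With posterior mean TPM the values of Eda lay wholly above those of Edar. On that estimate Eda also exceeded Edaradd in replicate 2, at 3.32 against 3.22. By the stricter measure of credibility intervals that do not overlap in either library, 3 pairs were apart: Sostdc1 over Lef1, Lef1 over Traf6, and Lrp4 over Edaradd. In replicate 1 Lrp4 lay above Traf6 and Sp6 above Edar. In replicate 2 both pairs stood the other way.

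Between the libraries, 2 of the 9 genes differed by over 1.5-fold in counts scaled with edgeR's TMM (trimmed mean of M values), where 12.8% of 17726 genes with a mean count of 10 or more did. Sp6 was higher in replicate 1, with a log2 ratio over replicate 2 of 0.70 and a 95% counting interval of 0.33 to 1.08. That interval leaves out the uncertain split of reads with Gm11532, which was given 30.8 counts in replicate 1 and 31.6 in replicate 2. The part of this split in the Sp6 ratio was not tested. Eda2r was lower in replicate 1, with a log2 ratio of -0.76, but its 19 and 27 counts left an interval of -1.73 to 0.10 that holds 0. The liver and heart markers were also lower in replicate 1, by the summed levels given above, and their part in these ratios was not tested. The other 7 ratios lay between -0.12 (Traf6) and 0.26 (Lef1). The intervals of Lef1 (0.20 to 0.31), Sostdc1 (0.17 to 0.29), Edaradd (0.04 to 0.40) and Lrp4 (0.0015 to 0.27) left out 0, and those of Eda, Edar and Traf6 held it. Larger ratios in either direction were held by 31.3% (Lef1), 34.7% (Sostdc1), 36.1% (Edaradd) and 54.5% (Lrp4) of the 17726 genes. The Lrp4 ratio was 0.134 with TMM, 0.131 with DESeq2 size factors and 0.096 with library totals. Its interval left out 0 by so little that this depends on the scaling. The signs of the Lef1, Sostdc1, Edaradd and Lrp4 ratios depend on it too. With the ERCC spike-ins they were -0.30 (Lef1), -0.33 (Sostdc1), -0.34 (Edaradd) and -0.43 (Lrp4). Scaling by the ERCC spike-ins moved the median of genes with a mean count of 10 or more to -0.54, where TMM left it at 0.02. On that scale the 2 genes over 1.5-fold were Eda2r at -1.30 and Traf6 at -0.68, Sp6 stood at 0.14, and 8 of the 9 genes were lower in replicate 1. These counts carry the shift of that median. The 12.8% holds for TMM only, and no share of all genes stands beside them. Relative to the same median Sp6 stood at 0.68 under either scaling, and Eda2r at -0.78 with TMM and -0.76 with spike-ins. Traf6 stood at -0.13 with TMM and -0.14 with spike-ins on this relative measure. Lef1 stood at 0.24, Edaradd at 0.21 and Lrp4 at 0.12 under either scaling. Sostdc1 stood at 0.22 with TMM and 0.21 with spike-ins. With 1 library on each side no test was possible.

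**Figure D5:**
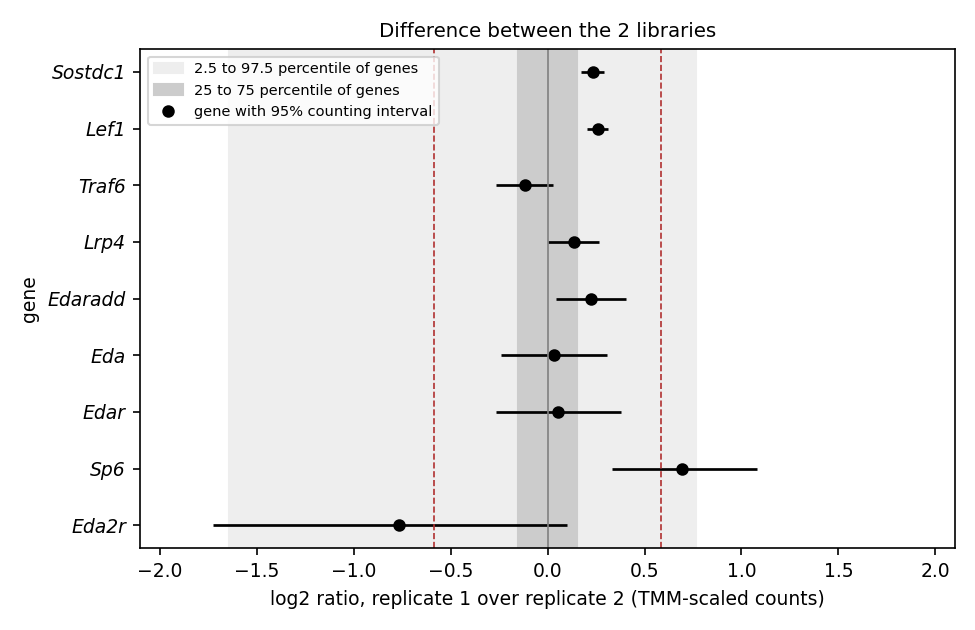
Log2 ratio of replicate 1 over replicate 2 for each gene (TMM-scaled counts) with its 95% counting interval, beside shaded bands for the spread of all genes with a mean count of 10 or more, and dashed lines at 1.5-fold. Sp6 (0.70) and Eda2r (-0.76) lie beyond the dashed lines, and the other 7 genes lie between -0.12 and 0.26.

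Of the 6 members with more than 1 transcript, 5 kept 1 leading transcript across the libraries, the exception being Lef1, beside 83.9% of 12540 genes with more than 1 transcript and TPM above 0 in each library. With posterior mean TPM the number was 3 (Traf6, Lrp4 and Sp6). The 83.9% holds for TPM only, and no share of all genes stands beside this 3.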

How the data were processed

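Gene and transcript tables of both libraries were used as deposited, on assembly mm10 with GENCODE M4 per the notes deposited with each library. The aligner, quantifier and strandedness are not given in the sources used here. Per the file headers, the deposited expected counts are estimated reads that may be fractional. The deposited TPM and FPKM values are per length and per library total, and ERCC spike-ins hold 13.4% of the total in replicate 1 and 9.68% in replicate 2. The deposited credibility bounds are a signal in TPM, whose level no header gives. The deposited posterior SD of counts was treated as a score. Deposited isoform percent columns were not used, because shares were computed from transcript TPM.

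Symbols, coordinates and sequences came from GENCODE M21 on GRCm38, the assembly mm10 names. Identifiers matched for 42462 gene rows and not for 884. Of the 34 member transcripts, 34 are in M21 and 32 have the same length there.

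Detection meant at least 1 TPM in each library. For ratios, counts were rounded to whole numbers, spike-in, phiX and number-only rows were left out, and libraries were scaled with edgeR 4.0.16 (TMM) in R 4.3.3, with a prior count of 1. DESeq2 1.42.0 gave alternative size factors. Intervals are exact Clopper-Pearson (95%, scipy 1.17.1 in Python 3.11.15) and cover counting error only. On simulated counts of 43346 genes, 2-fold changes gave a median log2 ratio of 1.00, and 91% of 100 intervals held the true ratio. The simulation held no spread beyond counting, so it checks the calculation only. It does not bear on the spread between the real libraries. All 9 members are named, with the 3 highest genes of each of 10 lists, listed genes at 0 counts in both libraries, and the Tcf, Sp, Lrp5 and Lrp6 relatives, except 1 listed gene that is not reported here. Others are named after their values were seen or to complete a comparison. Members and lists were chosen with earlier results of these data known.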

Additional observations from a re-analysis of the deposited data

How the results depend on the processing

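No paired analysis was possible because both libraries belong to 1 group. The number of members detected was 7 to 8 and that of listed genes 89 to 102 of 116, under every threshold, unit and library tried. The 5 neighbouring pairs apart became 3 by credibility intervals, 7 with counts not divided by length, and 4 by credibility intervals in either library alone. The 2 genes over 1.5-fold became 0 at 2-fold, 1 (Eda2r) with the ratio of TPM and a pseudocount of 0.1, and 1 (Sp6) among members with a mean count of 100 or more, an alternative chosen after seeing the data. No share of all genes stands beside these counts, because the 12.8% holds only for TMM at 1.5-fold and a mean count of 10 or more. The number of members over 1.5-fold stayed at 2 with spike-in scaling, but with Traf6 in place of Sp6. There the median of genes with a mean count of 10 or more itself lay at -0.54. The 5 genes with a constant leading transcript became 3 with posterior mean TPM, for which no share of all genes is given. The A1 share of Eda became 35.5% with posterior mean TPM, below the range of the single libraries, 48.4% to 68.5%. The cause was not tested. The order of the 9 genes was the same with posterior mean TPM and FPKM, also tried after seeing the data, and without division by length Lef1 stood above Sostdc1 and Lrp4 above Traf6. Leaving out a library gives no ratio between libraries and no comparison of leading transcripts. Of the recomputed counts and shares 28 kept within 1.5 times or 1 SD and 6 did not, and of the recomputed levels and ratios of single members 73 stayed within their spread or interval and 28 did not. The 19 and 27 counts of Eda2r, and single Eda transcripts, are limited by depth.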
